A study of Mus musculus with 3 samples.

Results

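The genes described here are 8 genes of fat cell formation and lipid handling, Lpl, Pparg, Adipoq, Cebpb, Cebpd, Fabp4, Cd36 and Plin2, taken by symbol from the 31253 genes of the count matrices. All 8 were found, each with 1 Ensembl identifier. They were measured in single cells of the jaw of wild-type male C57BL/6 mice aged 10 weeks. The groups were 1d, killed 1 day after 10 Gy to the head and neck, 7d, killed 7 days after the same dose, and Ctrl, which had no irradiation. The 24 mice were split equally, and the 8 mice of a group were joined into 1 suspension and 1 library, so there was no replicate, no spread between mice and no test. Intervals below are exact 95% intervals for counting error only, and a gap between libraries cannot be told apart from a gap between pools of mice or preparations. Where a class of cells is compared by its summed counts, fewer cells that carry a transcript and less of it per cell cannot be told apart either, so the number of cells behind each sum is given.

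Fat cells form from mesenchymal precursors, and in marrow they form from the stromal cells that also give rise to bone. In cultured precursors the factors C/EBPβ (Cebpb) and C/EBPδ (Cebpd) come on early and help to switch on Pparg, the nuclear receptor that drives the fat cell programme. Adipoq codes for the secreted fat cell hormone adiponectin, and it is also known from marrow stromal cells primed towards fat. Lpl codes for lipoprotein lipase, which frees fatty acids from circulating lipoproteins at the vessel wall and is also made by macrophages. Cd36 codes for a fatty acid and oxidised lipoprotein receptor, Fabp4 for a fatty acid carrier within the cell that is known from fat cells, capillary endothelium and macrophages, and Plin2 for a coat protein of lipid droplets found in many cell types.

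The genes lie on 7 chromosomes of the mouse genome (mm10, GENCODE M21), all as protein-coding genes. Lpl spans chr8:68880491-68907448 on the plus strand, Pparg chr6:115360951-115490399 (plus), Adipoq chr16:23146536-23158028 (plus) and Cebpd chr16:15887286-15891031 (plus). Cebpb spans chr2:167688915-167690418 (plus), Fabp4 chr3:10204088-10208576 (minus), Cd36 chr5:17781690-17888801 (minus) and Plin2 chr4:86648386-86670060 (minus). Counts were made per whole gene from the 3′ end of transcripts, so no exon or isoform was resolved.

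After filtering, 4879 cells of 1d, 6094 of 7d and 8587 of Ctrl were kept, with a median of 5022, 3816.5 and 2413 UMIs (unique molecular identifiers, each standing for 1 captured transcript). Libraries shared few cell barcodes: 12 between 1d and 7d, 20 between 1d and Ctrl and 24 between 7d and Ctrl. Class names come from rebuilt clusters and their markers, and each name stands for "-like" cells. The mesenchymal pool held 212 cells of 1d, 80 of 7d and 590 of Ctrl. It joined periodontal ligament and tendon-like cells (33, 32 and 84 cells), fibroblast-like cells (19, 20 and 144), osteoblast-like cells (6, 0 and 47), chondrocyte-like cells (0, 3 and 4) and mesenchymal cells that no marker list named (154, 25 and 311), so the makeup of the pool differed between libraries. Its 14 general mesenchymal markers were all detected in each library. A further 259 cells clustered with mesenchymal cells but held the pan-leukocyte gene Ptprc above a limit set after the data were seen. They were left out of the pool, and all 259 came from Ctrl (3.02% of its cells). Endothelial-like cells numbered 10, 23 and 53, macrophage-like cells 31, 25 and 50, and monocyte-like cells 448, 370 and 327.

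Fat was trimmed from the tissue before digestion, per the labels' protocols, and no cluster of fat cells was found. Of 12 fat cell markers outside the 8 genes, 6 had a UMI in the pool of 1d, 4 in that of 7d and 6 in that of Ctrl. The defining genes Cidec, Retn, Cfd, Lep and Adrb3 were at 0 UMIs in the pool of every library, and Plin1 had 0, 0 and 2 UMIs. Summed over the list, levels were 67.8, 16.2 and 224 CPM (UMIs scaled to 1000000 UMIs of the class in that library, here of the pool), but Car3, which osteoblast-like cells of these data also carried among their leading genes, made up 106 of 146 UMIs in 1d, 1 of 12 in 7d and 1213 of 1305 in Ctrl. The label of fat cell formation therefore describes the genes, and the cells that held them were mesenchymal, endothelial and blood cells.

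Each gene had its own distribution over cell types. The largest share of Lpl lay in monocyte-like cells in 1d (40.1% of the 284 UMIs in kept cells), in periodontal ligament and tendon-like cells in 7d (40.4% of 399) and in monocyte-like cells (25.3%), followed by fibroblast-like cells (20.2%), in Ctrl (585 UMIs). Cebpd and Plin2 lay largely in neutrophil precursor-like cells in 1d (72.4% and 59.0%) and 7d (80.0% and 52.6%). Cd36 lay in erythroid-like cells for 27.8% of its UMIs in 1d and 80.8% in 7d, where these cells numbered 88 and 367, against 9 in Ctrl. Endothelial-like cells, few as they were, held 29.6% of Fabp4 in 1d, 34.8% in 7d and 41.1% in Ctrl. Monocyte-like cells held more of it in 1d (36.0%) and nearly as much in 7d (31.3%). T cell-like cells, which should lack most of these genes, gave the level that free RNA can reach. These cells had a median depth of 3885, 3311.5 and 3163 UMIs. Their Lpl was 1.41, 0.151 and 0.699 CPM, their Fabp4 0, 0.303 and 0.233 CPM, and their Cebpd 2.81, 4.24 and 4.90 CPM. Cebpb and Plin2 were not low there, at 419, 456 and 346 CPM for Cebpb and 29.5, 11.2 and 39.6 CPM for Plin2. Whether free RNA or the RNA of these cells gave those levels was not tested.

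**Figure D1:**
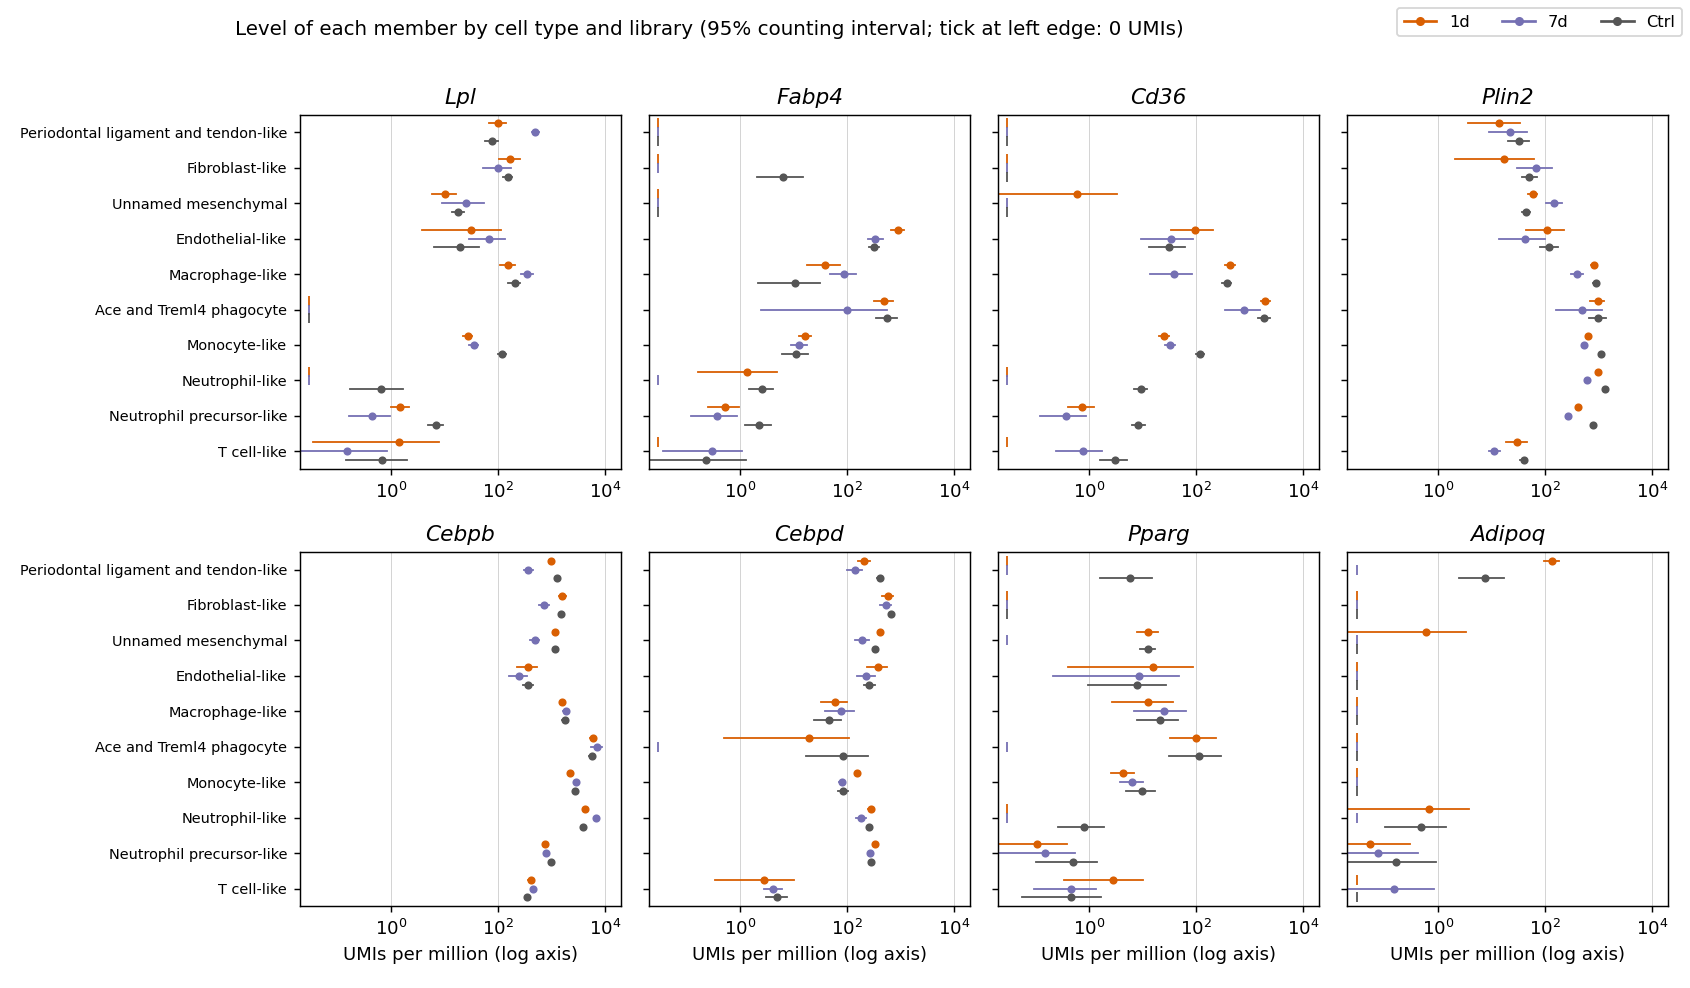
Level of each gene (CPM, log axis) in 10 cell types of the 1d, 7d and Ctrl libraries, with 95% counting intervals; a tick at the left edge marks 0 UMIs. Lpl of periodontal ligament and tendon-like cells stands at 101 CPM in 1d, 503 CPM in 7d and 77.5 CPM in Ctrl, while T cell-like cells hold little of any gene but Cebpb and Plin2.

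The early factors Cebpb and Cebpd were present in most mesenchymal cells, and Cebpb was lower in 7d than in Ctrl by over 2-fold in the pool and in each mesenchymal class that could be compared. In the pool, Cebpb was at 1155 CPM in 1d (2489 UMIs), 485 CPM in 7d (360 UMIs) and 1088 CPM in Ctrl (6351 UMIs). The ratio to Ctrl was 1.06 (1.01 to 1.11) for 1d and 0.446 (0.400 to 0.496) for 7d, so the 1d library differed little from Ctrl and the 7d library stood below both. The lower level in 7d was seen in each class: 375 CPM in 7d against 1283 CPM in Ctrl in periodontal ligament and tendon-like cells (ratio 0.292, 0.240 to 0.354), 737 against 1494 CPM in fibroblast-like cells (0.493, 0.392 to 0.615) and 488 against 1153 CPM in unnamed mesenchymal cells (0.423, 0.349 to 0.509). The calls in fibroblast-like and unnamed mesenchymal cells ended under some alternatives, at up to 0.557 with no cell filter in fibroblast-like cells and up to 0.614 with doublet-called barcodes kept in unnamed mesenchymal cells. With cells thinned to 1000 UMIs (0.529), doublet-called barcodes kept (0.64) or no cell filter (0.649), the 7d ratio of the pool lay within 2-fold, and over all alternatives it was from 0.339 to 0.649. Thinned to 1000 UMIs per cell, 54.6% of pool cells in 1d, 41.3% in 7d and 59.7% in Ctrl held a Cebpb UMI, against 34.2%, 32.3% and 26.7% of T cell-like cells. The 7d pool thus lay near the T cell level, 485 against 456 CPM. Whether that T cell level came from free RNA was not tested.

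Cebpd stood at 386 CPM in the 1d pool (832 UMIs), 245 CPM in 7d (182 UMIs) and 333 CPM in Ctrl (1946 UMIs). Its ratio was 1.16 (1.07 to 1.26) for 1d and 0.736 (0.629 to 0.857) for 7d, and with no cell filter the 7d ratio was 0.97, close to even. In periodontal ligament and tendon-like cells the difference was larger, at 209 CPM in 1d, 141 CPM in 7d and 410 CPM in Ctrl, with ratios of 0.510 and 0.343 (0.245 to 0.472 for 7d). At Leiden resolution 2, however, these became 1.07 and 0.682. In fibroblast-like cells the levels were 578, 532 and 670 CPM, and 1 Ctrl cell held 110 of the 513 UMIs. Without the top cell of each library the 1d ratio of this class was 1.01 in place of 0.863. In the pool, single cells carried little of the Cebpb sum in 1d and Ctrl, where the top cell held 2.85% and 1.84%. For Cebpd the top pool cell held 32 of 832 UMIs in 1d and 110 of 1946 in Ctrl. In 7d, where the pool had 80 cells, 1 chondrocyte-like cell held 10.6% of Cebpb and 15.9% of Cebpd.

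Outside the mesenchyme, both factors were found in phagocytes. Cebpb was higher in neutrophil-like cells of 7d (6918 CPM) than in those of Ctrl (3949 CPM), a ratio of 1.75 (1.69 to 1.82), and the 1d value was 4191 CPM. It was close to even in macrophage-like cells (1620, 1883 and 1771 CPM) and in monocyte-like cells (2285, 2884 and 2799 CPM). Cebpd of monocyte-like cells was 157 CPM in 1d, 80.0 CPM in 7d and 84.9 CPM in Ctrl, which gives 1.85 (1.5 to 2.29) for 1d. In endothelial-like cells Cebpb stood at 363, 247 and 365 CPM, below the T cell level in 1d and 7d and close to it in Ctrl. There, 1 Ctrl cell held 27 of the 94 UMIs. Whether the Cebpb of T cell-like cells was their own or free RNA was not tested, so the class was not compared with a known background. Cebpd of endothelial-like cells was at 379, 230 and 264 CPM, far above the T cell level.

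Pparg was scarce, and its UMIs were spread thinly over cells. The 1d pool had 21 UMIs in 14 of 212 cells, the 7d pool none in 80 cells and the Ctrl pool 47 UMIs in 41 of 590 cells. The levels were 9.75 CPM (6.03 to 14.9) in 1d and 8.05 CPM (5.91 to 10.7) in Ctrl, a ratio of 1.21 (0.688 to 2.07). For 7d, 0 UMIs allow up to 4.97 CPM. With a floor of 3 UMIs the ratio to Ctrl was 0.502, on either side of 2-fold over the alternatives (0.324 to 0.523). That floor lies below the end of the interval, which reached 0.670 without the top cell of each library. No 1d cell held more than 3 UMIs and no Ctrl cell more than 2. The T cell levels were 2.81 CPM (0.341 to 10.2), 0.454 CPM and 0.466 CPM, so the 1d interval of the pool overlaps that of T cell-like cells and the Ctrl interval does not. Nearly all of it lay in unnamed mesenchymal cells, which held 21 of the 21 UMIs in 1d and 39 of 47 in Ctrl. Those cells numbered 25 in 7d, so the 0 there rests on few cells. Within them the ratio with the floor of 3 UMIs was 0.995. Without the top cell of each library it was 1.04, and the interval reached 1.35. Periodontal ligament and tendon-like cells, which held the largest share of 7d Lpl, had 0, 0 and 4 Pparg UMIs. Phagocytes also held Pparg: monocyte-like cells had 18, 18 and 12 UMIs (4.38, 6.49 and 9.71 CPM), and a small class marked by Ace and Treml4 had 5 UMIs in 17 cells of 1d, 0 in 3 cells of 7d and 4 in 19 cells of Ctrl.

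Adipoq was all but confined to a handful of cells in 1d. The pool held 41 UMIs in 5 cells of 1d, none in 7d and 5 UMIs in 2 cells of Ctrl. The levels were 19.0, 0 and 0.856 CPM, and the ratio of 1d to Ctrl was 22.2 (8.79 to 72.1). One 1d cell held 26 of the 41 UMIs (63.4%), and the other four held 7, 6, 1 and 1. Without the top cell of each library the counts were 15 UMIs against 1 and the ratio 40.8, so the direction did not rest on the top cell. With no cell filter the ratio was 7.18. It does rest on 3 cells with more than 1 UMI each. In all kept cells Adipoq had 47, 4 and 10 UMIs.

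The Adipoq cells with most UMIs held transcripts known from marrow stroma. The cell with 26 Adipoq UMIs also held 7 of Lpl, 172 of Cxcl12, the chemokine of the marrow niche, 11 of Lepr, the leptin receptor of stromal cells, and 13 of Kitl, the niche factor for blood stem cells, but only 2 of Col1a1. The cells with 7 and 6 Adipoq UMIs held 67 and 144 of Cxcl12. In Ctrl, the cell with 4 Adipoq UMIs held 18 of Lpl, 21 of Cxcl12 and 15 of Kitl. The second Ctrl cell had 1 Adipoq, 2 Lpl, 1 Pparg and 90 Cxcl12 UMIs, and that was the only Pparg UMI in the 7 cells. None of the 7 held a UMI of Fabp4, Cd36 or Plin2. Clustering placed 4 of the 5 cells of 1d and both of Ctrl with periodontal ligament and tendon-like cells, yet the 4 cells of 1d had no UMI of Scx, Aspn or Fmod and at most 1 of Tnmd, markers of that class, of whose 10 markers 6, 7 and 8 had a UMI over all its cells in 1d, 7d and Ctrl. The name of the class does not describe them, and its Cxcl12 level of 1676 CPM in 1d, 160 CPM in 7d and 642 CPM in Ctrl shows that it mixes kinds of cells in unequal parts. Neutrophil marker RNA also differed in this class, at 6297, 175 and 1164 CPM summed over 11 markers; its part in the results was not tested.

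Lpl was past 2-fold higher in the 7d mesenchymal pool than in that of Ctrl. The pool held 67 UMIs in 1d, 179 in 7d and 229 in Ctrl, from 212, 80 and 590 cells. The levels were 31.1 CPM (24.1 to 39.5), 241 CPM (207 to 279) and 39.2 CPM (34.3 to 44.6). The ratio to Ctrl was 0.793 (0.595 to 1.05) for 1d and 6.15 (5.03 to 7.51) for 7d, so 1d did not stand apart while 7d did. With cells thinned to 1000 UMIs the 7d ratio was 2.58, the lowest of the alternatives. Lpl was detected in 27 of 212 cells of 1d (12.7%), 27 of 80 of 7d (33.8%) and 73 of 590 of Ctrl (12.4%). Thinned to 1000 UMIs per cell, the shares were 3.09%, 13.8% and 5.21%, and 0.621%, 0% and 0% in T cell-like cells. The median depth of pool cells was 9690, 8130 and 7362.5 UMIs.

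The 7d Lpl lay in a small group of collagen-rich cells. Of the 179 UMIs, 124 were in 7 cells with 10 or more Lpl UMIs each, and all 7 were periodontal ligament and tendon-like. The top cell held 31 UMIs (17.3%) and 4 cells held 50% of the sum. In 1d, 1 cell had 10 UMIs and none had more, and in Ctrl 5 cells with 10 or more held 89 of 229 UMIs. Leaving out the top cell of each library gave 6.02. The 3 leading cells of 7d, with 31, 23 and 20 Lpl UMIs, held 1153, 871 and 1746 UMIs of Col1a1, 137, 189 and 49 of Aspn and 38, 103 and 39 of Fmod. Aspn and Fmod code for small proteoglycans of ligament and tendon matrix. In these 3 cells Cxcl12 had 2, 2 and 0 UMIs and Scx 1, 6 and 0, and none held Tnmd. Not all of the 7 cells were rich in Aspn and Fmod. The cell with 16 Lpl UMIs held 1 of Aspn and 3 of Fmod. One of those with 11 held 2 of Aspn, 0 of Fmod, 6 of Lepr and 13 of Cxcl12. The other cells of the 7 held 21 to 189 of Aspn. The 3 leading Ctrl cells, with 29, 22 and 18 Lpl UMIs, held 30, 16 and 0 UMIs of Col1a1, no Aspn and 4, 0 and 0 of Fmod. They fell in 3 classes. Ctrl cells with less Lpl were mixed. Of the cells with 10 Lpl UMIs, one held 54 of Col1a1 and 29 of Aspn, the other 4 and 2. The cell with 7 held 336 of Col1a1 and 53 of Fmod.

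**Figure D2:**
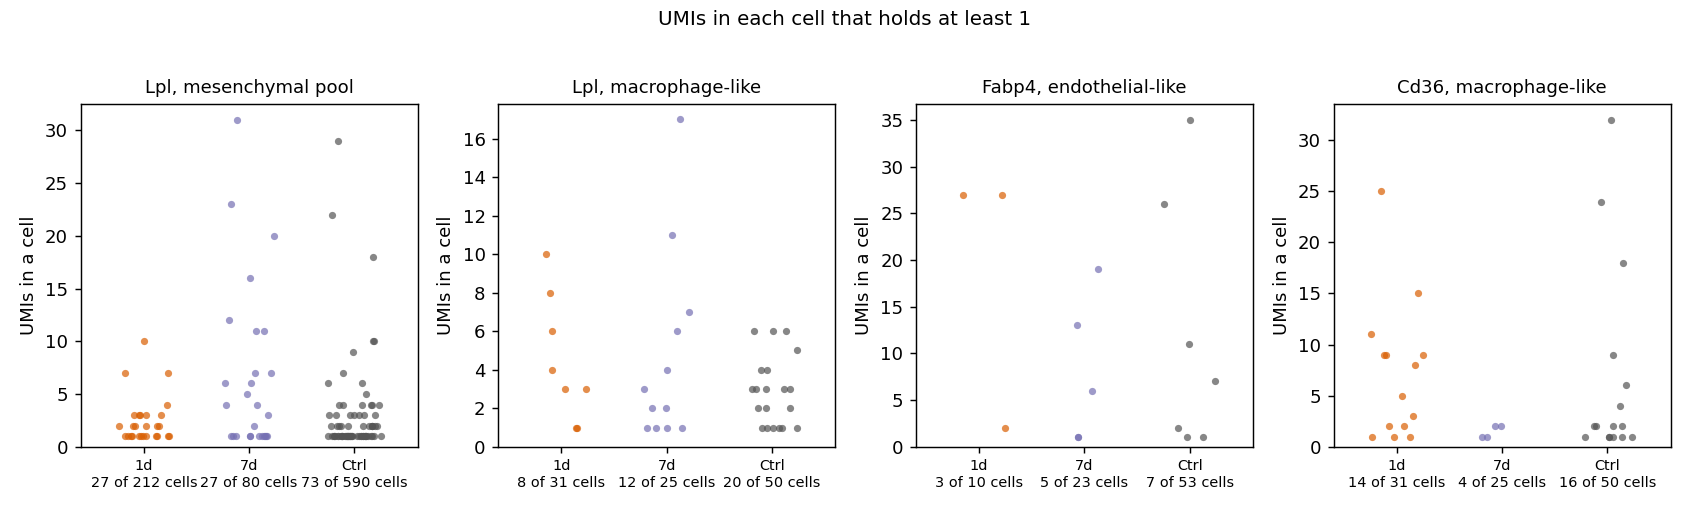
UMIs in each cell with at least 1, for Lpl in the mesenchymal pool and macrophage-like cells, Fabp4 in endothelial-like cells and Cd36 in macrophage-like cells; each point is a cell of 1d, 7d or Ctrl and the labels give how many of how many cells. Lpl of the 7d pool spreads up to 31 UMIs in 27 of 80 cells, and Cd36 of 7d macrophage-like cells does not exceed 2 UMIs in 4 of 25 cells.

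Within periodontal ligament and tendon-like cells the 7d library again stood apart. Lpl there had 30 UMIs in 11 of 33 cells of 1d, 161 UMIs in 18 of 32 cells of 7d and 52 UMIs in 15 of 84 cells of Ctrl. The levels were 101, 503 and 77.5 CPM, and the ratio was 1.31 for 1d and 6.5 (4.72 to 9.06) for 7d, from 3.94 to 10.3 over the alternatives. Among cells with Lpl, the median was 2, 6.5 and 2 UMIs. The Fmod level of the class also differed, at 330, 1504 and 377 CPM, and Aspn was at 2845, 2739 and 1654 CPM, so the class did not have the same matrix profile in each library. In fibroblast-like cells, Lpl was at 170, 103 and 154 CPM (20, 12 and 118 UMIs) and 7d did not stand apart: the ratio was 0.668 (0.336 to 1.21), although it turned above 1 with the stricter cell filter (2.74), with no cell filter and with doublet-called barcodes kept. Unnamed mesenchymal cells had 17 UMIs in 1d, 6 in 1 cell of 7d and 56 in Ctrl, of which 29 were in 1 cell. One of their clusters, led by Sfrp2, Tagln and Acta2, held 17 of the 17 UMIs of 1d and 55 of the 56 of Ctrl, from 25 and 34 cells, and it had 2 cells in 7d.

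Few mesenchymal cells held more than one of the fat cell genes. At least 2 of Lpl, Adipoq and Pparg were found in 2 of 212 pool cells in 1d (0.943%), 0 of 80 in 7d and 5 of 590 in Ctrl (0.847%). Thinned to 1000 UMIs per cell, the counts were 2, 0 and 0. The 7d pool had no UMI of Adipoq or Pparg in any cell, so its count of 0 was fixed in advance. Its 27 Lpl-positive cells thus carried Lpl without them at the depth of these libraries. Whether cells share these genes more or less often than their separate frequencies would give was not tested.

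Lpl in macrophage-like cells was highest in 7d, by less than 2-fold. These cells held 36, 56 and 58 UMIs in 8 of 31, 12 of 25 and 20 of 50 cells. The levels were 154 CPM in 1d, 359 CPM in 7d and 206 CPM in Ctrl, with ratios of 0.750 for 1d and 1.74 (1.19 to 2.56) for 7d, from 1.18 to 3.27 over the alternatives. In 7d, 2 cells with 17 and 11 UMIs held 50% of the sum. The leading cells held 10, 8 and 6 UMIs in 1d and 6, 6 and 6 in Ctrl. Thinned shares were 21.4%, 24% and 20.8%, from 28, 25 and 48 cells, too few to show whether the share of cells with Lpl differed.

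Fabp4 of endothelial-like cells lay mostly in 2 cells in each library. Endothelial-like cells expressed all 14 endothelial markers in each library. They held 56 Fabp4 UMIs in 3 of 10 cells of 1d, 40 UMIs in 5 of 23 cells of 7d and 83 UMIs in 7 of 53 cells of Ctrl. The levels were 884 CPM (668 to 1148), 341 CPM (244 to 464) and 322 CPM (257 to 400). The ratio was 2.74 (1.92 to 3.89) for 1d and 1.06 (0.707 to 1.56) for 7d. The 7d ratio was 2.93 with thinned cells and 2.23 with doublet-called barcodes kept, both past 2-fold, and with no cell filter the 1d ratio was 4.43. The cells held 27, 27 and 2 UMIs in 1d, 19, 13, 6, 1 and 1 in 7d, and 35, 26, 11, 7, 2, 1 and 1 in Ctrl. The top 2 cells thus held nearly all of the 1d sum, and the 2.74 describes 2 of 10 cells; without the top cell of each library it was 2.52. Neutrophil marker RNA in endothelial-like cells was 1483, 222 and 2976 CPM and macrophage marker RNA 931, 162 and 707 CPM, while C1qa, C1qb and C1qc were at 0 in all libraries; the part of this RNA in the Fabp4 values was not tested.

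Lpl, Cd36 and Pparg reached single endothelial-like cells as well. One Fabp4 cell of 1d held 6 Cd36 UMIs, all those of the class, and 1 of Pparg. A 7d cell with 19 Fabp4 UMIs held all 8 Lpl UMIs of the class. Gpihbp1, which codes for the protein that anchors lipoprotein lipase to capillaries, had 1, 9 and 13 UMIs in the class, and 10 of the 13 in Ctrl were in the cell with 35 Fabp4 UMIs. Summed over the class, Lpl had 2, 8 and 5 UMIs and Cd36 6, 4 and 8, too few for a comparison. Plin2 had 7, 5 and 31 UMIs (110, 42.6 and 120 CPM), a ratio of 0.354 (0.107 to 0.918) for 7d, beside a T cell ratio of 0.283 (0.212 to 0.374).

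Among phagocytes, Fabp4 was clearest in the cells marked by Ace and Treml4, genes of patrolling monocytes. Cd36 and Fabp4 were the 2 leading genes of this cluster, although neither was used in clustering. It held 25 Fabp4 UMIs in 8 of 17 cells of 1d, 1 in 3 cells of 7d and 20 UMIs in 9 of 19 cells of Ctrl. The levels were 497 CPM in 1d and 569 CPM in Ctrl, a ratio of 0.874. The level lay above that of endothelial-like cells in Ctrl and below it in 1d. Cd36 was found in 15 of 17 of these cells in 1d and 16 of 19 in Ctrl, with 100 and 66 UMIs (1988 and 1877 CPM, ratio 1.06), and in 2 of 3 cells of 7d. This class was thus alike in 1d and Ctrl and too small in 7d. No Lpl UMI was found in it in any library. In macrophage-like cells Fabp4 had 9, 14 and 3 UMIs, and in monocyte-like cells 68, 36 and 14 (16.5, 13 and 11.3 CPM), of which 21 in 1d were in 1 cell.

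Cd36 of macrophage-like cells was far lower in 7d than in 1d or Ctrl. These cells held 101 UMIs in 14 of 31 cells of 1d, 6 UMIs in 4 of 25 cells of 7d and 107 UMIs in 16 of 50 cells of Ctrl. The levels were 433 CPM (353 to 526), 38.4 CPM (14.1 to 83.7) and 380 CPM (311 to 459). The ratio was 1.14 (0.860 to 1.51) for 1d and 0.101 (0.0363 to 0.228) for 7d, from 0.0806 to 0.262 over the alternatives. The cells with most UMIs held 25, 15 and 11 in 1d, 2, 2 and 1 in 7d and 32, 24 and 18 in Ctrl. In 1d, 3 cells held 50% of the sum and in Ctrl 2 cells did, so the higher sums rest on few cells. Thinned shares were 32.1%, 0% and 14.6%. The 12 macrophage markers of the class summed to 6310, 11619 and 8640 CPM. Cells with Cd36 were not alike in the macrophage marker C1qa. The 3 with most Cd36 held 0, 14 and 35 UMIs of it in 1d and 3, 8 and 51 in Ctrl. The 4 cells of 7d with Cd36 held 47, 31, 33 and 12. The part of makeup in the Cd36 difference was not tested. Neutrophil marker RNA in the class was 3116, 4669 and 7416 CPM.

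Monocyte-like cells held less Lpl and less Cd36 in both irradiated libraries than in Ctrl. Lpl was at 27.7 CPM in 1d (114 UMIs), 35.7 CPM in 7d (99 UMIs) and 120 CPM in Ctrl (148 UMIs), with ratios of 0.232 (0.180 to 0.298) and 0.298 (0.229 to 0.387). Cd36 was at 25.3, 33.2 and 121 CPM (104, 92 and 149 UMIs), with ratios of 0.210 (0.162 to 0.272) and 0.275 (0.210 to 0.359). No cell decided these sums, since the top cells held 13.2%, 6.06% and 7.43% of Lpl. Thinned to 1000 UMIs, 1.82%, 2.99% and 8.91% of cells held Lpl and 2.73%, 3.80% and 9.57% held Cd36. Kept doublet-called barcodes moved the 7d ratios to 0.669 for Lpl and 0.598 for Cd36, both then within 2-fold.

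The monocyte-like class was not made of the same cells in each library. The Ctrl cells lay mainly in a cluster led by Inhba, Cxcl3 and Thbs1 (142 cells of 1d, 4 of 7d and 257 of Ctrl), those of 7d in a cluster led by Nr1d1 and Tcp11l2 (9, 245 and 5), and 2 clusters led by cell cycle genes held 71, 80 and 0 cells and 55, 4 and 1 cells. Within the cluster led by Inhba, Lpl was at 22.9 CPM in 1d and 115 CPM in Ctrl and Cd36 at 60.6 and 143 CPM, so both genes were also lower in 1d there. In a cluster led by heat shock and immediate early genes (109, 26 and 22 cells), Lpl was at 21.5, 54.3 and 67.6 CPM. For 7d, the cluster that held most of the cells had 5 cells in Ctrl, so the 7d ratios cannot be told apart from that difference in makeup. Neutrophil marker RNA in the class was 3237, 2410 and 6985 CPM, and its part in these differences was not tested.

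Neutrophil-like cells and their precursors held little Lpl, Fabp4 or Cd36. Cd36 of neutrophil-like cells had 0, 0 and 57 UMIs in 475, 183 and 2639 cells, so the ratio was at most 0.217 for 1d and at most 0.702 for 7d. In precursor-like cells Cd36 had 14, 5 and 51 UMIs, with ratios of 0.0893 and 0.0451. These values moved with the processing: over the alternatives the neutrophil ratio reached 0.799 for 1d and 1.82 for 7d, and the precursor ratio 0.497 for 1d and 0.577 for 7d, so the neutrophil call in 1d and the precursor call in 7d came to lie within 2-fold. Lpl there had 28, 6 and 42 UMIs, but 33 of the 42 in Ctrl were in 1 cell. Without the top cell of each library the 1d ratio of Lpl was 0.756 in place of 0.217, and its direction turned under the stricter filter and at Leiden resolution 2.

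**Figure D3:**
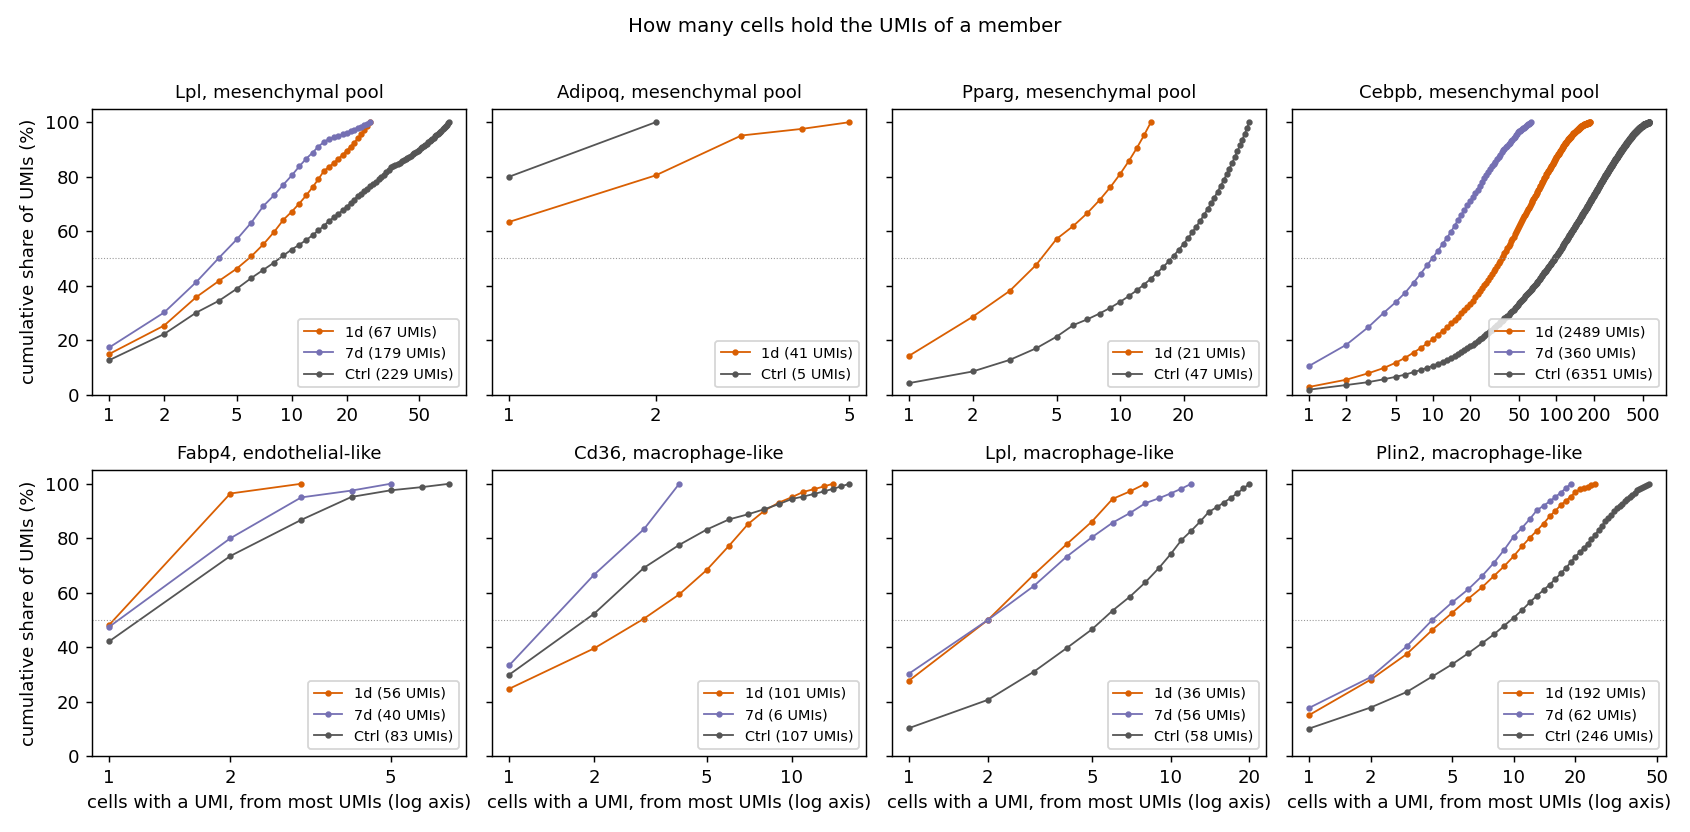
Cumulative share of a gene's UMIs (%) against the number of cells, ordered from the cell with most UMIs (log axis), for 8 pairs of gene and class in 1d, 7d and Ctrl. The dotted line marks 50%: 1 cell passes it for Adipoq in 1d and Ctrl, 2 cells for Fabp4 in each library, and 36, 10 and 97 cells for Cebpb of the 1d, 7d and Ctrl pool.

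Single cells held most UMIs of a gene in few cases but a large part in many. Over the pool, the endothelial, macrophage, monocyte, neutrophil and neutrophil precursor-like classes, 75 sums of a gene in a library had at least 20 UMIs. In 2 of these 1 cell held over 50%: Adipoq of the 1d pool and Lpl of neutrophil precursor-like cells in Ctrl. In 18 of the 75 1 cell held over 20%, and in 24 50% of the UMIs lay in 5 cells or fewer. Cebpb and Plin2 of monocyte-like cells were at the other end, with 85, 80 and 65 cells needed to reach 50% of Plin2 in 1d, 7d and Ctrl.

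Plin2 was lower in phagocytes of 7d than in those of Ctrl, while its direction in the mesenchymal pool depended on which cells were counted. In the pool it had 103, 52 and 218 UMIs, at 47.8 CPM (39.0 to 58.0) in 1d, 70.1 CPM (52.3 to 91.9) in 7d and 37.3 CPM (32.5 to 42.6) in Ctrl. The ratios were 1.28 (1.00 to 1.63) and 1.88 (1.36 to 2.55), both within 2-fold. Free RNA limits what this shows: the T cell level of Plin2 was 39.6 CPM in Ctrl, as high as the Ctrl pool, and 29.5 CPM in 1d, and only in 7d did the pool lie far above it, at 70.1 against 11.2 CPM. Thinned shares were 3.09%, 11.3% and 4.69% in the pool against 2.48%, 0.701% and 4.02% in T cell-like cells. With the 259 Ptprc-rich Ctrl cells counted in the pool the ratios turned to 0.485 for 1d and 0.711 for 7d, and with thinned cells the 7d ratio was 2.67, past 2-fold.

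The unnamed mesenchymal cells carried this pattern. Plin2 was at 58.8 CPM in 1d (97 UMIs), 147 CPM in 7d (35 UMIs) and 44.5 CPM in Ctrl (137 UMIs), a ratio of 3.31 (2.21 to 4.82) for 7d. Their clusters differed between libraries, as 14 of the 25 cells of 7d lay in a cluster led by Cldn10 and St8sia6 that held 15 cells of 1d and 4 of Ctrl. Plin2 within it was at 101, 98.8 and 96.2 CPM, but the Ctrl value came from 4 cells, too few to compare libraries. The class as a whole stood higher in 7d, at 147 CPM, than this cluster did. The part of makeup in the ratio was not tested. Periodontal ligament and tendon-like cells had 13.5, 21.9 and 32.8 CPM, below the T cell level in 1d and Ctrl and above it in 7d (7 UMIs), and fibroblast-like cells 17, 68.6 and 50.9 CPM from 2, 8 and 39 UMIs.

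In phagocytes Plin2 was abundant and lower in 7d. Macrophage-like cells held 192, 62 and 246 UMIs in 25 of 31, 19 of 25 and 46 of 50 cells, at 823, 397 and 873 CPM, with ratios of 0.943 for 1d and 0.455 (0.339 to 0.603) for 7d. Monocyte-like cells were at 639, 522 and 1095 CPM, with ratios of 0.584 and 0.477 (0.442 to 0.514). Neutrophil-like cells were at 957, 614 and 1317 CPM and their precursors at 417, 265 and 788 CPM, which gives 0.466 and 0.336 for 7d. All 4 classes had less Plin2 in 7d than in Ctrl under every alternative run, although the ratio reached 0.554 in monocyte-like, 0.553 in neutrophil-like and 0.574 in precursor-like cells, within 2-fold. T cell-like cells (0.283) and NK and innate lymphoid-like cells (0.388, 46 against 61 UMIs) had low ratios too. Plin2 of T cell-like cells was taken above as a level that free RNA can reach. Whether their own RNA or free RNA gave these low ratios was not tested.

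**Figure D4:**
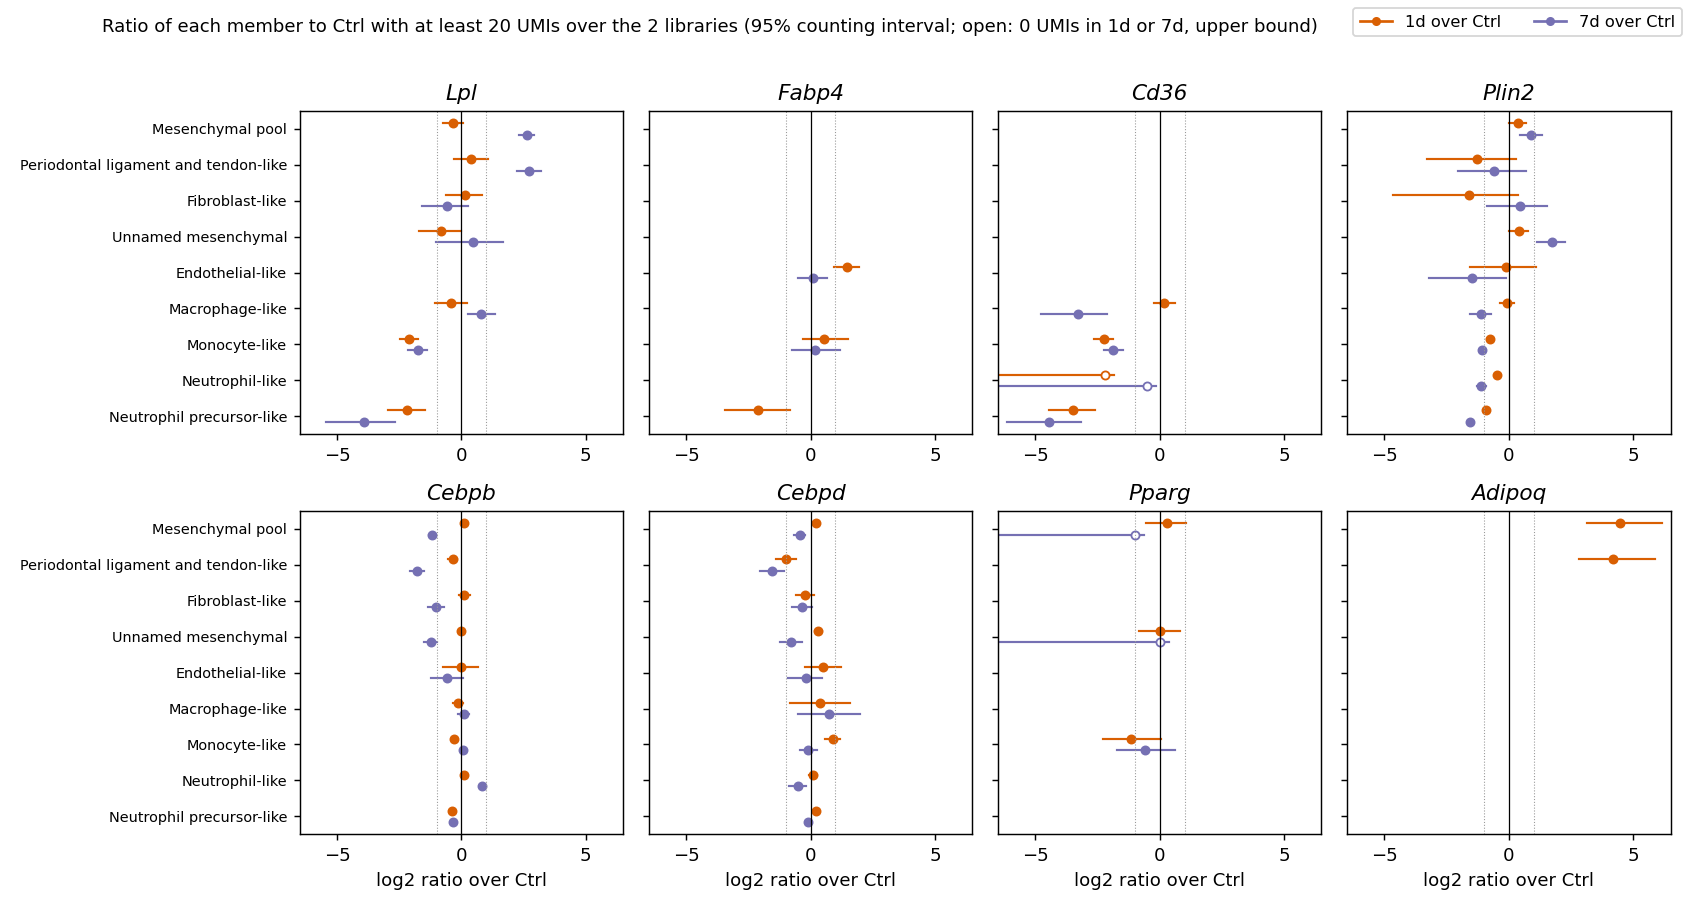
Log2 ratio of 1d and 7d to Ctrl for each gene and class with at least 20 UMIs over the pair of libraries, with 95% counting intervals; dotted lines mark 2-fold, and open points are upper bounds where 1d or 7d had 0 UMIs. Lpl at 7d lies to the right in the pool and in periodontal ligament and tendon-like cells (6.15 and 6.5 as ratios) and to the left in monocyte-like cells (0.298).

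Counts of genes past 2-fold were set beside the share of all genes past 2-fold in the same class, since few of the 8 could be compared in any class. In the pool, 6 had at least 20 UMIs over 1d and Ctrl and 1 was past 2-fold, higher (Adipoq), where 9.22% of all genes were past 2-fold, 4.96% higher and 4.26% lower. For 7d, 5 could be compared, of which Lpl was higher and Cebpb lower, beside 29.6% of all genes, 19% higher and 10.7% lower. Pparg, at its bound of 0.502, was not past 2-fold. In endothelial-like cells, 1 of 4 was past 2-fold in 1d (Fabp4 higher, beside 20.5% of all genes, 5.54% higher and 15% lower) and 1 of 4 in 7d (Plin2 lower, beside 31.8%, 14.1% higher and 17.7% lower).

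Within the mesenchymal classes, periodontal ligament and tendon-like cells had 2 of 5 past 2-fold in 1d, Adipoq higher and Plin2 lower, where 11.9% of all genes were past it, 3.59% higher and 8.29% lower. That Plin2 ratio, 0.411, came from 4 and 22 UMIs and its interval reaches 1.21. In 7d they had 3 of 4, Lpl higher and Cebpb and Cebpd lower, beside 26%, 10.1% higher and 15.9% lower. Fibroblast-like cells had 1 of 4 in 1d (Plin2 lower, from 2 and 39 UMIs, with an interval that reaches 1.29 and a ratio of up to 3.40 with thinned cells, beside 17.4%, 5.82% higher and 11.6% lower) and 1 of 4 in 7d (Cebpb lower, beside 28.6%, 13.3% higher and 15.3% lower). Unnamed mesenchymal cells had 0 of 5 in 1d (6.55%, 4.02% higher and 2.52% lower) and 2 of 5 in 7d, Plin2 higher and Cebpb lower, beside 35.1%, 22.9% higher and 12.3% lower.

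Macrophage-like cells had 0 of 5 past 2-fold in 1d (12.2% of all genes, 6.72% higher and 5.51% lower) and 2 of 5 in 7d, Cd36 and Plin2, both lower, beside 21%, 9.66% higher and 11.3% lower. Monocyte-like cells had 3 of 7 lower in 1d (Lpl, Pparg and Cd36), where 24.8% of all genes were past 2-fold, 19.8% higher and 4.97% lower. The Pparg ratio there, 0.451, has an interval that reaches 1.03. In 7d they had 3 of 7 lower (Lpl, Cd36 and Plin2), beside 23.9%, 16.5% higher and 7.41% lower. Neutrophil-like cells had 1 of 4 lower in 1d (Cd36, beside 11.7%, 4.06% higher and 7.66% lower) and 1 of 4 lower in 7d (Plin2, beside 26.3%, 14.2% higher and 12.1% lower). Precursor-like cells had 3 of 6 lower in 1d (18.4%, 10.1% higher and 8.22% lower) and 3 of 5 lower in 7d (42.6%, 31.9% higher and 10.7% lower). None of the macrophage, monocyte, neutrophil and precursor-like classes had a gene of the 8 past 2-fold higher. Other cells clustered with the phagocytes were not in these counts. Among them, conventional dendritic-like cells had Cebpb past 2-fold higher in 7d. With so few genes compared per class, these counts describe the genes and do not set them apart from the rest.

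The median log2 ratio of the compared genes was 0.24 for 1d and −0.44 for 7d in the pool, beside 0.14 and 0.27 over all genes. In monocyte-like cells it was −0.78 and −0.58, beside 0.28 and 0.20. Composition scaling with TMM factors moves all ratios of a class together, by −0.17 log2 for 1d and −0.40 for 7d in the pool and by −0.18 and −0.14 in monocyte-like cells. Relative to that, the 7d ratios of the pool were 4.67 for Lpl, 0.339 for Cebpb, 0.559 for Cebpd and 1.43 for Plin2, and none of these changed direction.

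Other genes of the same pathways were taken from 8 lists with 135 genes, listed with earlier results of these data known. In the 1d pool, 7 of 108 compared genes were higher and 8 lower past 2-fold, with a median log2 ratio of 0.13, beside 0.14 over all genes, of which 4.96% were higher and 4.26% lower. Among targets of PPAR receptors, 3 of 16 were higher and 0 lower. Among these were Acaa2, a mitochondrial thiolase (2.01), and Fabp3, a fatty acid carrier (82.2 against 38.4 CPM, ratio 2.14). Zfp467, a factor that favours fat over bone in stromal cells, had 26 and 24 UMIs (2.94, 1.62 to 5.34). Of the uptake list, 2 of 20 were higher, among them the fatty acid transporter Slc27a1 (2.01), and 2 lower, among them Cav1 of caveolae (0.480). Hilpda, a lipid droplet protein induced by low oxygen, was at 0.498 and Gas6, a ligand of phagocytic receptors, at 0.480.

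In the 7d pool, 22 of 106 compared genes were higher and 22 lower, at a median of 0.27, the same as over all genes, of which 19% were higher and 10.7% lower. The list of transcription factors of fat cell formation went both ways, with 5 higher and 6 lower of 17. Not all of them favour it, Tsc22d3 and Per2 among those that do not, so the count gives no direction. Tsc22d3, a leucine zipper factor induced by glucocorticoids, was at 942 CPM in 7d against 90.9 CPM in Ctrl (699 and 531 UMIs, ratio 10.4, 9.24 to 11.6). Zfp423, which commits cells to the fat lineage, was at 4.5 from 12 and 21 UMIs, and Rxra, the partner of Pparg, at 2.05. Lower were Ppargc1a, a coactivator of mitochondrial genes (2 and 256 UMIs, ratio 0.0615), Klf5, a factor of early fat cell formation (0.230), and the clock gene Per2 (0.350).

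The list of regulators taken to oppose fat cell formation was as mixed in the 7d pool, with 3 higher and 3 lower of 11. The Wnt ligands Wnt10b (3.93, from 15 and 30 UMIs) and Wnt5a (426 against 146 CPM, 2.91) were higher. So was Sfrp1 (2.42), a secreted antagonist that blocks Wnt ligands rather than acting as one, so it need not oppose fat cell formation as they do. Foxo1 (0.443) and Smad3 (0.390) were lower. In the list for lipoprotein and fatty acid uptake, 4 were higher and 6 lower of 20: Apoe (2.47), Slc27a1 (2.67) and Acsl5 (2.05) higher, and Angptl4 (0.320, 0.219 to 0.453) and the acyl-CoA synthetases Acsl4 (0.325) and Acsl3 (0.492) lower. Angptl4 codes for an inhibitor of lipoprotein lipase, and it was at 44.5 CPM in 7d against 139 CPM in Ctrl (33 and 812 UMIs) where Lpl was 241 against 39.2 CPM.

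Lipid droplet genes of the 7d pool were higher in 4 cases and lower in 2 of 14. Higher were Mgll, the monoglyceride lipase (2.91), Plin3, another droplet coat protein (2.6), and Hsd17b11 (2.39). Lower were Hilpda (0.289) and Dgat1, the last enzyme of triglyceride synthesis (0.458). Of the PPAR targets, 2 were higher and 3 lower of 16, with Slc25a20 (2.06) higher and Fabp3 (0.492) and Fabp5 (0.399) lower. Phagocyte lipid genes were higher for 5 and lower for 1 of 15, with Gpnmb (3.08) and the efferocytosis receptor Mertk (2.73) higher. The marrow stromal list had 2 higher and 2 lower of 16, and Grem1, a BMP antagonist, was at 0.251. Only 8 of 21 mature fat cell genes could be compared, with 1 higher (Agpat2, 2.06) and 3 lower. TMM factors divide each 7d ratio of the pool by 1.32, after which 37 genes in all were past 2-fold, in place of 44.

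Endothelial-like cells allowed fewer comparisons. For 1d, 2 were higher and 11 lower of 34, beside 5.54% and 15% of all genes, and for 7d 7 were higher and 6 lower of 43, beside 14.1% and 17.7%. Higher in 7d were Tsc22d3 (648 against 58.3 CPM, ratio 11.1), Cav1 (802 against 330 CPM, 2.43) and the lipoprotein receptor Scarb1 (2.19). Lower were Hilpda (2 and 30 UMIs, 0.146), the cholesterol exporter Abca1 (0.325) and the adhesion molecule Vcam1 (0.186).

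In macrophage-like cells, 5 genes were higher and 9 lower of 46 for 1d, beside 6.72% and 5.51% of all genes, and 10 were higher and 7 lower of 44 for 7d, beside 9.66% and 11.3%. The scavenger and clearance receptor Lrp1 was at 0.399 in 1d and 0.373 in 7d. In 7d, Hilpda (0.241) and Abca1 (0.463) were lower, and Cebpa, the C/EBP factor of both fat cells and myeloid cells (2.31), Gas6 (2.5) and Tmem176b (3.09) were higher.

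Monocyte-like cells had 9 higher and 11 lower of 75 for 1d (median −0.11 against 0.28 over all genes), beside 19.8% and 4.97% of all genes, and 10 higher and 15 lower of 73 for 7d (0.17 against 0.20), beside 16.5% and 7.41%. Phagocyte lipid genes were lower for 5 and higher for 0 of 15 in 1d, and lower for 4 and higher for 0 of 14 in 7d. They include Abca1 (0.386 in 1d, 0.115 in 7d), osteopontin Spp1 (0.404 and 0.117) and, in 7d, Gpnmb (0.247). In the uptake list 3 were higher and 3 lower of 17 in 1d and 3 higher and 5 lower in 7d. Its scavenger receptors went both ways, with Olr1 at 0.396 in 1d and 0.193 in 7d, Msr1 at 0.308 in 7d and Scarb1 at 2.55 and 2.44. Hilpda was at 0.394 and 0.202 and Dgat1 at 0.343 and 0.264. Higher were Tsc22d3 (3.38 in 1d and 2.19 in 7d), Klf2 (3.18 in 1d) and Klf9 (2.82 in 7d). Spp1 and Gpnmb are among the 10 leading genes of the cluster led by Inhba that holds most Ctrl cells, so for these 2 genes the clustering and the comparison are not independent.

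Other genes were ranked by the likeness of their pattern over cell types to that of each of the 8. Likeness was Pearson's r of log2(CPM + 10) over 47 sums of a class in a library, given as a description, since the sums share libraries and depth. For Plin2 the closest genes reported were Cd14 (0.952), Clec4e (0.932) and Igsf6 (0.927). For Fabp4 they were Ednrb (0.904), Nos3 (0.856) and Ace (0.829), for Cebpd Dstn (0.894) and Scamp1 (0.860), and for Lpl Acp2 (0.878), Abca9 (0.866) and Axl (0.859). Cebpb was nearest to Notch2 (0.835), Por (0.835) and Hpcal1 (0.828). Pparg was nearest to Flrt3 (0.819), Hfe (0.804) and Cttnbp2nl (0.799), and Cd36 to Rsad2 (0.814), Rab3il1 (0.782) and Cmpk2 (0.755). Adipoq, with 61 UMIs in all, was nearest to Gdpd2 (0.706), St6galnac2 (0.656) and Tnfsf11 (0.654).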

How the data were processed

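Single cells from 3 libraries (1d, 7d and Ctrl) were analysed. The deposited matrices hold UMI counts per gene and barcode that the authors made with Cell Ranger 6.1.1, per the file headers, from the mm10 genome, per the submitters' processing notes, which also name CASAVA 1.8 and Seurat. Jaw tissue was trimmed of fat, digested with collagenase, frozen and thawed, and libraries were made with the 10x Genomics single-cell 3′ kit, per the labels' protocols. They hold 6043, 7744 and 11315 barcodes and 46119700, 49998293 and 41048084 UMIs. The 8 genes and all gene and marker lists were chosen with earlier results of these data known.

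Barcodes with at least 500 UMIs, 250 genes and at most 15% mitochondrial UMIs were kept. Doublets were scored with Scrublet in scanpy 1.11.5. Its automatic threshold marked 10 barcodes of 1d (0.195%) and 1 of 7d (0.0154%), which is too few, so for these libraries the highest scores were taken at 0.8% per 1000 barcodes. In all, 248, 403 and 293 barcodes were left out (4.84%, 6.20% and 3.30%). Of the cells kept, 9 shared a barcode between 1d and 7d, 11 between 1d and Ctrl and 14 between 7d and Ctrl, and they were retained.

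Counts were scaled to 10000 per cell, log transformed and clustered on 2000 variable genes without the 8 genes, with 30 principal components, 15 neighbours and Leiden resolution 1, into 27 clusters. Mesenchymal and endothelial cells were clustered again into 16 groups and phagocytes into 12. A class was named when at least 3 of its markers passed (10% of cells, log2 of at least 1) and at least 2 of these were among its 10 leading genes or 50% of the list passed; the second clustering and these rules were set after the data were seen. Mesenchymal groups with at least 1 Ptprc UMI per 10000 UMIs were set aside.

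Levels are UMIs of a gene per 1000000 UMIs of the class, with exact Poisson intervals; shares have Clopper-Pearson and ratios conditional binomial intervals, all at 95% and for counting error only. With 1 library per group no test was run. A gene was compared with at least 20 UMIs over both libraries and called past 2-fold. A library at 0 UMIs was set to a floor of 3. Thinned shares use 1000 UMIs drawn per cell, and cells with fewer were left out. From each of 8 lists (135 genes) the text could name up to 3 genes per direction: past 2-fold, farthest from 1 by the nearer end of the interval, in at least 10% of cells where higher, and with no cell holding over 20% of the UMIs there. TMM factors came from edgeR 4.0.16. The scripts were tested on simulated data. Other tools were Python 3.11.15, numpy 2.4.6, pandas 2.3.3, scipy 1.17.1, leidenalg 0.10.2, scikit-learn 1.9.0 and R 4.3.3. Some items are not reported here.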

Additional observations from a re-analysis of the deposited data

Results flagged for a closer look

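Lpl in 7d relative to Ctrl lay on opposite sides of 1 in different cell types. The ratio was 6.5 in periodontal ligament and tendon-like cells, against 0.298 in monocyte-like cells and 0.0657 in neutrophil precursor-like cells. In the precursor-like cells 33 of the 42 Ctrl UMIs lay in 1 cell, and the ratio was 0.204 without the top cell of each library and, over the alternatives, up to 0.669 at Leiden resolution 2. With doublet-called barcodes kept the monocyte ratio was 0.669 too, and with thinned cells the ligament and tendon ratio was 3.94.

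Fabp4 in 1d relative to Ctrl was 2.74 in endothelial-like cells and 0.232 in neutrophil precursor-like cells, the second from 10 UMIs in 1d and 14 in Ctrl. Under Leiden resolution 2 the precursor ratio changed direction.

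Plin2 in 7d relative to Ctrl was 3.31 in unnamed mesenchymal cells. It was 0.354 in endothelial-like, 0.477 in monocyte-like, 0.455 in macrophage-like, 0.466 in neutrophil-like and 0.336 in neutrophil precursor-like cells. With no cell filter the value in unnamed mesenchymal cells was 1.82. The difference between cell types was not tested for any of these 3 genes, since each group is 1 library.

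Barcodes called doublets and left out held Lpl above its level in Ctrl doublet calls: 46 UMIs in 248 barcodes of 1d, 251 UMIs in 403 barcodes of 7d and 15 UMIs in 293 barcodes of Ctrl, at 12.1, 49.7 and 9.46 CPM. The ratio of 7d to Ctrl was 5.25 (lower end 3.13). A single left-out 7d barcode held 47 Lpl UMIs, more than any kept cell, where the highest was 31 in 7d and 33 over all libraries. Cd36 in the same barcodes was at 9.21, 32.7 and 12 CPM from 35, 165 and 19 UMIs, a ratio of 2.73 for 7d (lower end 1.69). For both genes the compared barcodes were picked by different rules. Those of Ctrl came from the automatic threshold, and those of 1d and 7d were the highest scores at an assumed rate.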

How the results depend on the processing

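With 1 library per group, every value compares libraries. No paired analysis was possible because each group has 1 library. Depth limits Pparg, Adipoq and all endothelial sums, and so do the classes of 10 to 33 cells in 1d and 7d. Over the alternatives, counts and co-occurrences stayed within 1.5 times in 101 cases and moved in 21. Single ratios stayed within their counting interval in 848 cases, moved in 210, and changed direction from a value past 2-fold in 6. The alternative with the Ptprc-rich cells and those with 2 other random starts of the clustering were added after the data were seen.

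These 6, as log2 ratios of 1d to Ctrl, concern 3 values. Plin2 of fibroblast-like cells, at −1.58, became 0.92 with no cell filter, 0.69 at Leiden resolution 2 and 1.77 with thinned cells. In neutrophil precursor-like cells, Lpl became 0.99 with the stricter filter and 1.21 at resolution 2, and Fabp4 0.45 at resolution 2. The cause was not tested. Values within 2-fold also crossed 1 under some alternatives, among them Plin2 of the pool (0.485 in 1d and 0.711 in 7d with the Ptprc-rich cells counted), Cebpd of 1d ligament and tendon-like cells (1.07 at resolution 2) and Lpl of 7d fibroblast-like cells (2.74 with the stricter filter).

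Of the 8 genes, the number past 2-fold in the pool was 1 in 1d, 0 with thinned cells and 2 with the Ptprc-rich cells counted, and in 7d it was 2, and 1 past 3-fold. In endothelial-like cells it was 1 in 1d, 0 past 3-fold and 2 with at least 5 UMIs. In 7d it was 1, 2 with doublet-called barcodes kept, 0 past 3-fold and 2 with at least 5 UMIs. Summed over macrophage, monocyte, neutrophil and precursor-like cells it was 7 in 1d and 3 with thinned cells, and 9 in 7d and 5 past 3-fold.

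Of the 135 related genes, 44 were past 2-fold in the 7d pool and 29 with doublet-called barcodes kept. Requiring at least 100 UMIs left 2 of 13 in 1d and 5 of 13 in 7d in endothelial-like cells, and 4 of 14 and 7 of 17 in macrophage-like cells.

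Without thinning, cells with at least 2 of Lpl, Adipoq and Pparg in the Ctrl pool numbered 5 in place of 0. Cells with at least 2 of Fabp4, Cd36 and Lpl numbered 7, 5 and 9 in place of 2, 0 and 1 among macrophage-like cells of 1d, 7d and Ctrl. Among endothelial-like cells they numbered 2 in place of 1 in 1d and 4 in place of 2 in Ctrl.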

Other observations

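Erythroid-like cells held much of the Cd36 of the irradiated libraries. Their Cd36, which is known from maturing red cells, had 165 UMIs in 88 cells of 1d, 842 UMIs in 367 cells of 7d and 5 UMIs in 9 cells of Ctrl. The level per class was 320, 340 and 167 CPM. The Cd36 total of 7d, 1042 UMIs in kept cells, thus followed the number of erythroid-like cells more than the level in them.

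Conventional dendritic-like cells had a higher Cebpb level in 7d, at 905 CPM from 146 cells, against 232 CPM from 21 cells of Ctrl, a ratio of 3.9, and the 1d level was 224 CPM. In the Ctrl-only Ptprc-rich cells set aside from the mesenchyme, which were led by neutrophil or B cell genes, Plin2 stood at 499 CPM. Among barcodes called doublets, 1 of 7d held 63 of the 71 Fabp4 UMIs found in them, more than any kept cell of the 3 libraries.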
